A study of Mus musculus with 12 samples.

Results

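The transcripts described here are those of the NF-κB transcription factor subunits and of proteins grouped with them by name as inhibitors. They are the 10 genes Nfkb1, Nfkb2, Rela, Rel, Relb, Nfkbia, Nfkbie, Nfkbiz, Bcl3 and Tnfaip3, chosen by name, and all 10 were present among the 12151 genes measured. RNA was measured in 12 libraries, 4 groups of 3 replicates, of murine pre-B cells that BCR-ABL1 had transformed and that serve to model acute lymphoblastic leukemia of B cells (B-ALL). All 4 groups carried BCR-ABL1 and had loxP sites around exon 3 in 1 copy of the β-catenin gene Ctnnb1 (Ctnnb1 Ex3 fl/+), an exon that encodes the residues that mark the protein for degradation. Cells of the WT groups (sgNTC) had been edited with nontargeting guides and those of the KO groups with guides against Ikzf1 and Ikzf3, which encode the zinc finger factors Ikaros and Aiolos of the B lineage, and lines were then grown from single cells. ERT2 WT and ERT2 KO carried a vector for the ERT2 receptor domain and GFP, whereas Cre-ERT2 WT and Cre-ERT2 KO carried Cre-ERT2 and GFP. On 4-hydroxytamoxifen (4-OHT) Cre-ERT2 removes exon 3 and stabilizes β-catenin. All cells were sorted for GFP, and the time the protocol gives is 1 day of 4-OHT, in a sentence on ChIP-seq. It was taken here for all 4 groups, the ERT2 controls included. In another RNA experiment of the study, cells with either vector received 4-OHT. Nothing in the labels tells whether replicates were separate lines, clones or cultures, so p-values measure only the spread between these libraries, which may be technical.

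NF-κB factors are dimers of Rel-homology proteins that bind κB sites in DNA. In resting cells IκB proteins keep them in the cytoplasm, and on signals from antigen, Toll-like or TNF family receptors the IκB kinase complex marks IκB for destruction, so that the dimers enter the nucleus. NF-κB then drives transcription of its own inhibitors, a negative feedback. In B cells the pathway is known for survival, activation and differentiation. The ubiquitin ligases that recognize phosphorylated IκBα also recognize phosphorylated β-catenin.

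Facts of the whole table bear on every value below. Each value is a log2 level as normalized by the authors, the library medians lay between 9.06 and 9.11, and sequencing depth is unknown. Ikzf1 mRNA was higher in the libraries labelled KO (14.75 in ERT2 KO against 13.74 in ERT2 WT), whereas Ikzf3 was lower (10.98 against 11.63). An mRNA level does not check loss of a protein, and KO is used below only as the label of those libraries. Ctnnb1 moved by 0.06 with Cre-ERT2 in WT and by 0.13 in KO, and a value per gene does not show the loss of 1 exon. All 12 pre-B cell markers were present, whereas none of 7 T cell markers and none of 6 erythroid and stromal markers was in the table.

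Levels of the 10 genes were compared with each other only per kilobase of exon (log2 of normalized units per kb, mean of the 12 libraries). Nfkbia was highest at 9.16, above 83.3% of genes, followed by Rela at 8.60, Nfkb1 at 8.05, Rel at 7.68 and Nfkbie at 7.58. Nfkb2 lay at 6.53 and Tnfaip3 at 5.97. Relb at 4.36, Nfkbiz at 2.95 and Bcl3 at 1.05 were the lowest, the last above only 3.40% of genes. Exon lengths were merged over annotated isoforms, 12061 bases for Nfkb1 and 1610 for Nfkbia, so the order among the genes depends on them. By this measure the cells held abundant mRNA of IκBα and of the canonical subunits and little of Relb, Nfkbiz and Bcl3. For those 3 genes the authors' transformation may compress differences, because it is not stated.

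**Figure D1:**
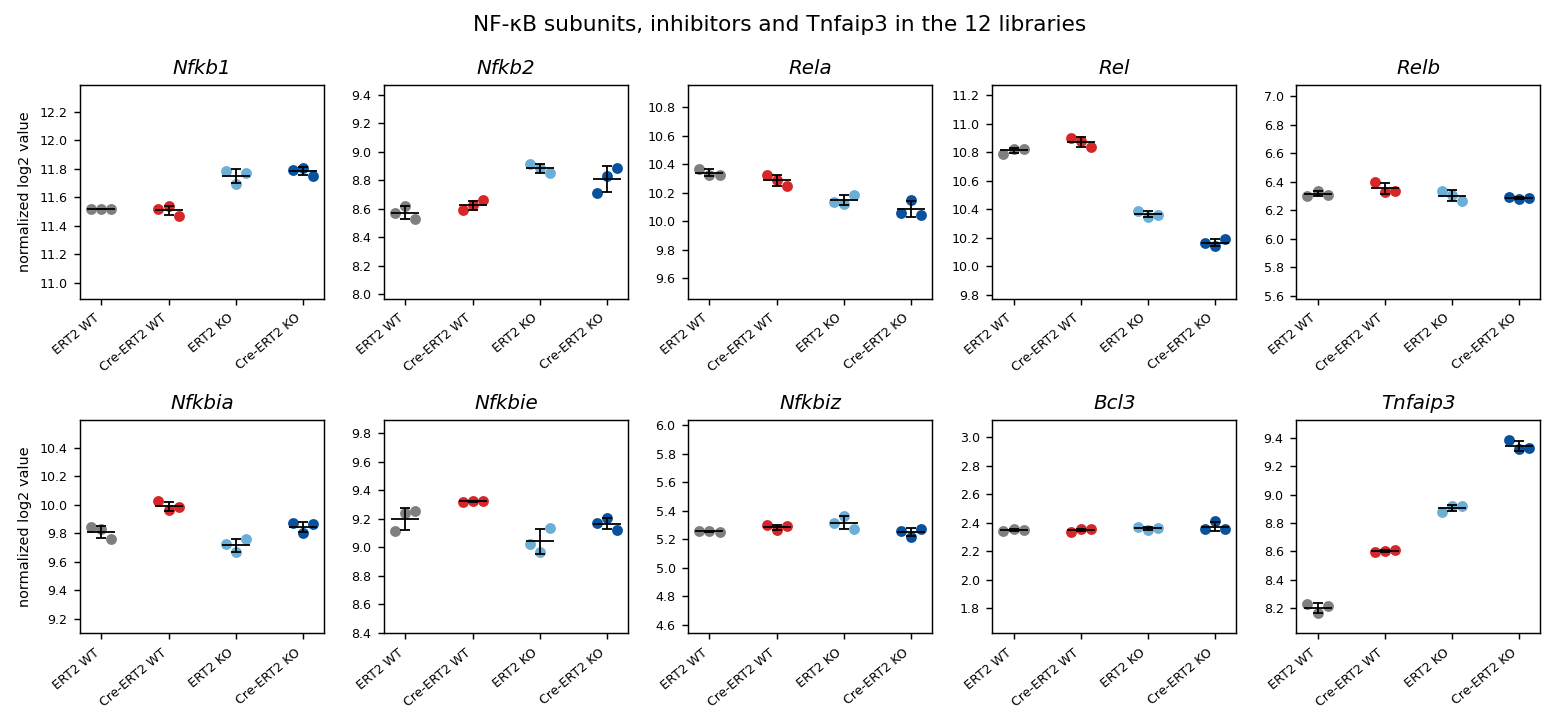
Normalized log2 values (y axis, each panel spanning an equal range) of the 10 genes in the 4 groups (x axis); points are the 3 libraries of a group, and bars give the mean ± SD. Tnfaip3 steps upward through the 4 groups without overlap, from 8.17 to 8.23 in ERT2 WT to 9.32 to 9.38 in Cre-ERT2 KO, whereas Rel is lower in KO than in WT and lowest in Cre-ERT2 KO.

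κB sites stand in the promoters of most of these genes. Promoter windows from 250 bases before to 50 after a transcription start were found for 7 of the 10 genes (10 windows, RefSeq, GRCm38.p6). The κB consensus, searched by name on both strands, matched in 8 of the 10 windows and in 6 of the 7 genes, against 4.51% of all 32851 promoter windows. Rela was the gene without a match. The Ikaros core GGGAA was found in 10 of 10 windows, against 62.7% of all promoters, and the TCF/LEF core CTTTG in 5 of 10, against 53.9%. Because κB sites can contain the Ikaros core, 6 of the 23 Ikaros core matches in these windows overlapped a κB match. The 8 κB sites at the most upstream starts are shown because they are the sequence feature that the inhibitors and subunits share. Capitals mark the κB match, overlapping matches are joined, and each is written on the strand of its gene.
Nfkb2, chr19:46304692-46304714, plus strand: cgtcacGGGAATTCCCCccctcg
Nfkb2, chr19:46304720-46304741, plus strand: ccgaaaGGGGCTTTCCcggctg
Rel, chr11:23771045-23771067, minus strand: agcagcGGGAAATCCCCccccct
Nfkbia, chr12:55492661-55492682, minus strand: tggcttGGAAATTCCCcgcgcc
Nfkbie, chr17:45555588-45555609, plus strand: caaacaGGGGGATTCCggaggg
Tnfaip3, chr10:19015520-19015541, minus strand: cacgcgGGGACACCCCggggcg
Tnfaip3, chr10:19015407-19015428, minus strand: tccatcGGAAATCCCCctgttg
Bcl3, chr7:19822738-19822759, minus strand: cggcagGGGAAGTCCCgctgcc
Of these 8 sites, 4 held GGGAA on one of the strands, namely the upstream site of Nfkb2 and the sites of Rel, Nfkbia and Bcl3. Neither site of Tnfaip3 did. Starts are those of RefSeq, and the sites of Nfkb2, Tnfaip3 and Bcl3 lie inside the gene spans of GENCODE M21. A match describes the letters of the window and no binding was measured here.

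**Figure D2:**
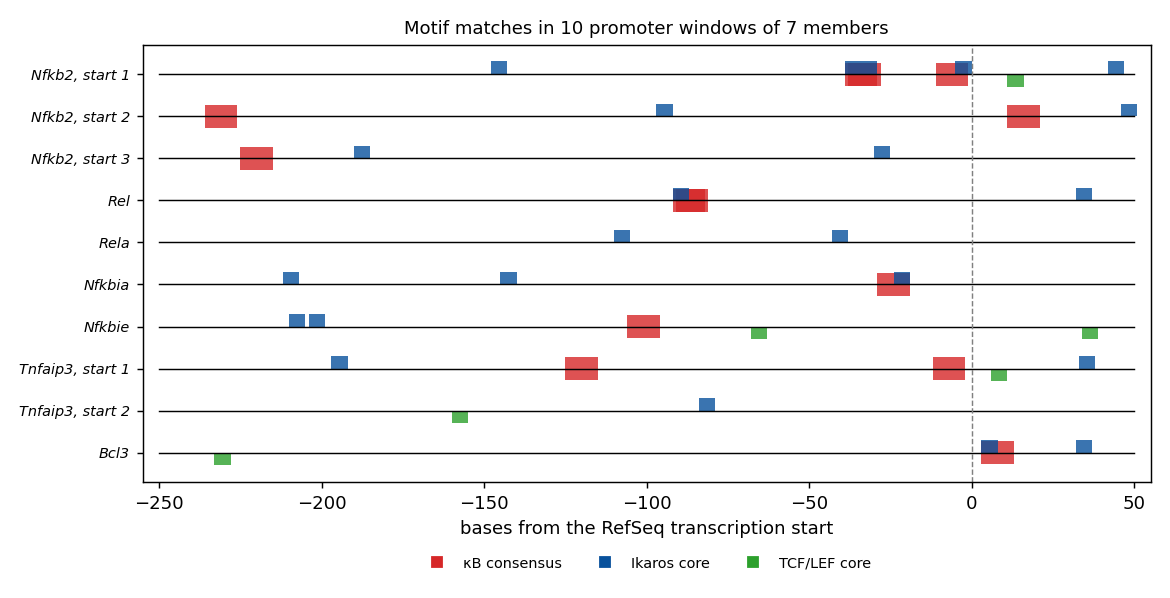
Positions of the κB consensus (red), the Ikaros core (blue, upper) and the TCF/LEF core (green, lower) in the promoter windows of the 7 genes with a RefSeq entry. The x axis gives bases from the transcription start. Negative positions lie before the first transcribed base, positive ones begin with it, and no base has position 0. κB matches begin at positions from -236 to 11, and the match near the downstream starts 2 and 3 of Nfkb2 at 11 and -225 is one and the same site.

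The first question was which of these transcripts changed when β-catenin was stabilized in cells with Ikaros factors (Cre-ERT2 WT against ERT2 WT). Of the 10 genes, 2 rose, Tnfaip3 and Nfkbia, both inhibitors, and 0 of the 5 subunits passed the test (limma, adjusted p under 0.05 over all genes), with 1 at an unadjusted p under 0.05. Of all genes 11.9% were called, 5.93% as higher and 5.95% as lower.

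Tnfaip3, the ubiquitin-editing enzyme that ends signaling from TNF and Toll-like receptors, showed the larger response. Its log2 values were 8.23, 8.17 and 8.22 in ERT2 WT and 8.59, 8.60 and 8.61 in Cre-ERT2 WT. Every Cre-ERT2 library thus lay above every ERT2 library. The difference was 0.40 ± 0.028 (SE, n = 3 and 3, limma adjusted p = 1.57e-06), or 31.6% higher. Tnfaip3 lies on the minus strand of chromosome 10 (19000910 to 19015657, GRCm38). Its promoter is shown because it changed most of the 10 genes, with both κB matches of its upstream window in capitals and no base exonic in GENCODE M21. The stretch lies before a RefSeq start but inside the gene span just given.
Tnfaip3, chr10:19015411-19015540, minus strand: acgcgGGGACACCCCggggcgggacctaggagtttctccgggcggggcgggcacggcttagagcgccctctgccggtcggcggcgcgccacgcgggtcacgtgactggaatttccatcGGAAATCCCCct

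Nfkbia encodes IκBα, the inhibitor that is degraded first and made anew by NF-κB. Its values were 9.84, 9.83 and 9.76 in ERT2 WT and 10.03, 9.96 and 9.98 in Cre-ERT2 WT. The groups did not overlap, and the difference of 0.18 ± 0.033 (adjusted p = 0.00317) was 13.2%. In its promoter the single κB match begins at position -29 from the start.
Nfkbia, chr12:55492648-55492777, minus strand: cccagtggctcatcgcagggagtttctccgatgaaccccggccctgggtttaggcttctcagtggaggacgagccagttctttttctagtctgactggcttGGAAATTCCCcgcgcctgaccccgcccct

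Nfkbie, which encodes IκBε, had values of 9.11, 9.24 and 9.25 in ERT2 WT and of 9.32, 9.32 and 9.33 in Cre-ERT2 WT. These groups did not overlap either, but the difference of 0.12 ± 0.046 missed the threshold (adjusted p = 0.119). Among the subunits the differences ran from -0.05 for Rela, which encodes the transactivating p65, to 0.06 for Rel (adjusted p from 0.158 to 0.886). Differences of Nfkbiz (0.03) and Bcl3 (0.00042), which encode nuclear IκB proteins, did not pass either. With 3 libraries against 3, the exact 2-sided permutation test cannot give a p below 0.1, which it gave for the genes whose groups did not overlap, namely Tnfaip3, Nfkbia, Nfkbie, Rel, Rela and Nfkbiz. Of these only Tnfaip3 and Nfkbia were called by limma. The share of all genes whose groups do not overlap was not computed for any comparison. Lack of overlap therefore describes the values and does not set these genes apart from others.

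The same question was then asked in the KO libraries (Cre-ERT2 KO against ERT2 KO), where 3 of the 10 genes were called. Tnfaip3 and Nfkbia rose again, and Rel fell. Of all genes 12.6% were called, 7.27% as higher and 5.33% as lower.

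Tnfaip3 values were 8.88, 8.92 and 8.92 in ERT2 KO and 9.38, 9.32 and 9.33 in Cre-ERT2 KO. The difference of 0.44 ± 0.028 (adjusted p = 3.77e-07) was 35.5%, and its groups did not overlap. For Nfkbia the values were 9.72, 9.67 and 9.76 in ERT2 KO and 9.87, 9.80 and 9.86 in Cre-ERT2 KO. These did not overlap, with a difference of 0.13 ± 0.033 (adjusted p = 0.0215). The call of Nfkbia was lost without ERT2 KO replicate 1 or 2 or Cre-ERT2 KO replicate 1 or 3 (adjusted p = 0.0521, 0.0931, 0.0699 and 0.0628), and with these 2 groups fitted alone (adjusted p = 0.0640).

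Rel encodes c-Rel, the subunit most restricted to lymphoid cells. Its values were 10.39, 10.35 and 10.36 in ERT2 KO and 10.16, 10.14 and 10.19 in Cre-ERT2 KO. All 3 Cre-ERT2 libraries were lower, by 0.20 ± 0.025 on the log2 scale (adjusted p = 0.000166). In WT the same gene had stood at 10.79, 10.83 and 10.83 without Cre and at 10.90, 10.88 and 10.84 with it, a difference of 0.06 ± 0.025 that missed the threshold (adjusted p = 0.158). The promoter of Rel holds overlapping κB matches, which begin at positions -92 and -91 from its start, and the first of them begins with the Ikaros core.
Rel, chr11:23770971-23771099, minus strand: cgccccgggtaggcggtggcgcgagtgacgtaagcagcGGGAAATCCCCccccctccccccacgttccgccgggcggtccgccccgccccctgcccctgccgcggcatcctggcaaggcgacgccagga

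The other 7 genes did not pass the test in KO. Nfkbie had 9.03, 8.96 and 9.14 in ERT2 KO and 9.17, 9.20 and 9.12 in Cre-ERT2 KO, a difference of 0.12 ± 0.046 with overlap (adjusted p = 0.108). Without ERT2 KO replicate 3, the highest of its group for Nfkbie and the lowest for Nfkbiz, Nfkbie (0.17, adjusted p = 0.0304) and Nfkbiz (-0.09, adjusted p = 0.0244) passed as well, which made 5 called genes. Differences of the remaining genes lay between -0.07 for Nfkbiz and Nfkb2 and 0.03 for Nfkb1.

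Whether the effect of β-catenin differed between backgrounds was tested as the difference of both effects, KO minus WT. Of the 10 genes only Rel passed, with -0.26 ± 0.035 (adjusted p = 0.000984), against 4.53% of all genes (2.71% higher, 1.82% lower). For Tnfaip3 both effects were close in size, and their difference of 0.04 ± 0.040 did not pass (adjusted p = 0.664). Nor did those of Nfkbia (-0.05 ± 0.046, adjusted p = 0.650) and Nfkbie (0.0032 ± 0.065, adjusted p = 0.988). These p-values do not show that the effects were equal.

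**Figure D3:**
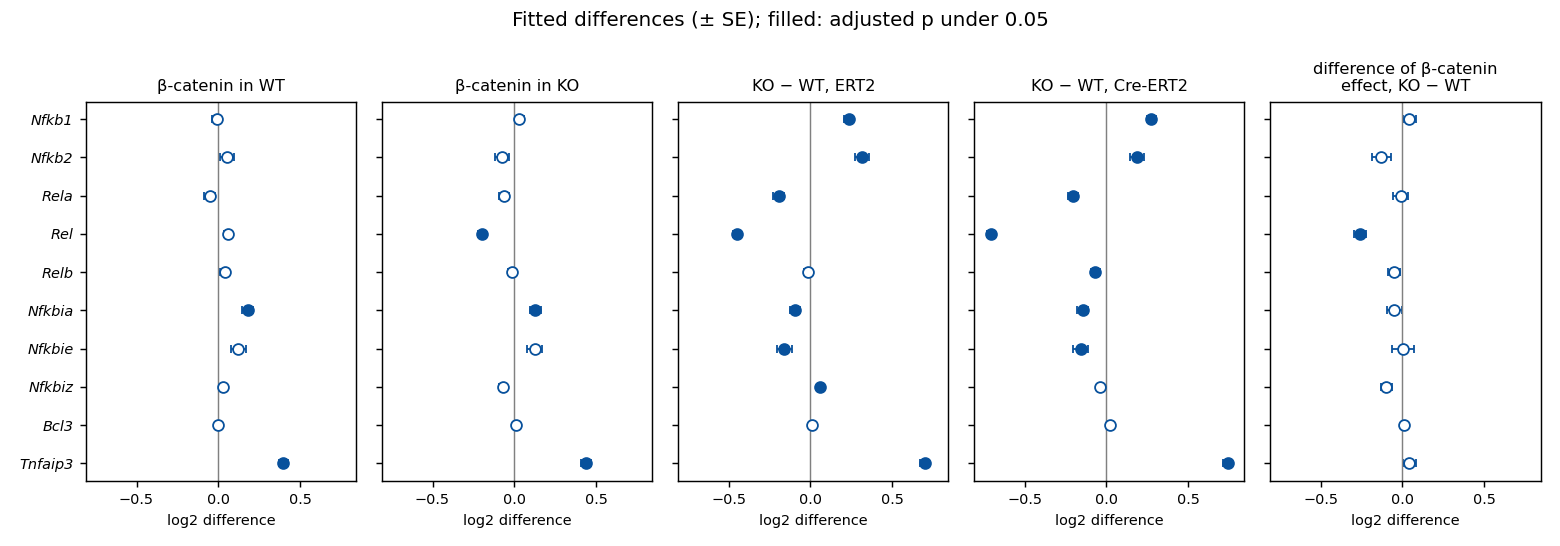
Fitted log2 differences (x axis) with their SE for the 10 genes (y axis) in 5 comparisons; filled points passed adjusted p under 0.05 (limma). Tnfaip3 lies to the right of 0 in the first 4 panels, Rel to the left in all but the first, and the last panel holds 1 filled point.

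The second question was how the libraries labelled KO differed from WT, first without stabilized β-catenin (ERT2 KO against ERT2 WT). Of the 10 genes 8 were called, against 59.0% of all genes, 4 higher (29.8% of all) and 4 lower (29.3%). Subunits went both ways, with Nfkb1 and Nfkb2 higher and Rel and Rela lower. Tnfaip3 was the most raised, and the cytoplasmic inhibitors Nfkbia and Nfkbie were lower. Centring each library on its median moved the split of all called genes from 3616 higher and 3559 lower to 2866 and 4747, and that of the 10 genes to 3 higher and 4 lower. Relative to WT, pre-B cell markers were lower in sum (94558 to 94749 in ERT2 KO against 123944 to 125633 in ERT2 WT, unlogged). Of these 12 markers 8 were called lower and 2 higher, Rag1 (0.32) and Rag2 (0.38) of the V(D)J recombinase, while Pax5 (-0.03) and Ebf1 (-0.05) did not pass. Of 8 myeloid markers the 2 in the table summed to 194 to 196 in ERT2 WT and to 349.6 to 370.1 in ERT2 KO, and they moved in opposite directions, Lyz2 by 0.99 and Itgam by -0.15. Their part in the values below was not tested, and in bulk RNA fewer cells of a type and less RNA per cell cannot be told apart.

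Nfkb1 encodes a precursor whose processed product is the DNA-binding partner of p65 and c-Rel. Its values were 11.52, 11.52 and 11.51 in ERT2 WT and 11.79, 11.69 and 11.77 in ERT2 KO. All KO libraries were higher, by 0.23 ± 0.028 (adjusted p = 1.22e-05), or 17.6%. Nfkb2 encodes the precursor of the noncanonical pathway and had 8.57, 8.62 and 8.52 in ERT2 WT and 8.91, 8.88 and 8.85 in ERT2 KO. This was the larger rise of the pair, 0.31 ± 0.042 (adjusted p = 3.56e-05), without overlap.

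Rel fell by 0.45 ± 0.025 on the log2 scale (adjusted p = 8.07e-09) from the ERT2 WT to the ERT2 KO values given above. The highest KO library (10.39) lay below the lowest WT library (10.79). Rela had 10.37, 10.33 and 10.33 in ERT2 WT and 10.14, 10.12 and 10.19 in ERT2 KO. Its groups did not overlap, and the difference was -0.19 ± 0.032 (adjusted p = 0.000219). Relb, the partner of processed Nfkb2, had 6.30, 6.34 and 6.31 against 6.34, 6.31 and 6.26, with overlapping groups and a difference of -0.01 ± 0.026.

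Among the inhibitors, Tnfaip3 was higher by 0.70 ± 0.028 (adjusted p = 3.12e-10), or 62.4%, in ERT2 KO than in ERT2 WT. Even the lowest ERT2 KO library (8.88) lay above all Cre-ERT2 WT libraries (8.59 to 8.61). Nfkbie was lower by a difference of -0.16 ± 0.046 (adjusted p = 0.00965), although its groups overlapped, since the highest KO library (9.14) exceeded the lowest WT library (9.11). The difference of Nfkbia (-0.09 ± 0.033, adjusted p = 0.0252) was lost without ERT2 WT replicate 1 or 2 or ERT2 KO replicate 2 (adjusted p = 0.0930, 0.0748 and 0.109). That of Nfkbiz (0.06 ± 0.023, adjusted p = 0.0367) was lost without any one of the ERT2 WT libraries or without ERT2 KO replicate 1 or 2 (adjusted p between 0.0681 and 0.164), and under either rescaling. Bcl3 stayed near the floor of the table in every library, between 2.34 and 2.41.

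Under stabilized β-catenin (Cre-ERT2 KO against Cre-ERT2 WT) 8 of the 10 genes were again called, against 58.9% of all genes, 3 higher (30.4% of all) and 5 lower (28.6%). Centring on the median gave 2983 higher and 4789 lower over all genes, and 3 and 6 among the 10. Tnfaip3, Nfkb1 and Nfkb2 were higher, and Rel, Rela, Relb, Nfkbia and Nfkbie lower. This comparison and that of the ERT2 libraries share no sample, but all 4 groups share the estimate of the spread.

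Rel showed the largest fall, by 0.71 ± 0.025 on the log2 scale (adjusted p = 8.36e-11), a change of -38.8% in Cre-ERT2 KO. Tnfaip3 differed by 0.74 ± 0.028 (adjusted p = 1.68e-10), or 67.2%. Both genes had groups far apart, with 10.84 as the lowest WT and 10.19 as the highest KO value of Rel. Nfkb1 had 11.52, 11.54 and 11.47 in Cre-ERT2 WT and 11.79, 11.81 and 11.75 in Cre-ERT2 KO (difference 0.27 ± 0.028, adjusted p = 2.62e-06). Nfkb2 had 8.59, 8.62 and 8.66 against 8.71, 8.83 and 8.89 (0.18 ± 0.042, adjusted p = 0.00229). Neither gene overlapped between the groups. Rela had 10.32, 10.29 and 10.25 in WT and 10.06, 10.15 and 10.05 in KO, again without overlap (-0.20 ± 0.032, adjusted p = 0.000143). Nfkbia (-0.14 ± 0.033, adjusted p = 0.00209) and Nfkbie (-0.16 ± 0.046, adjusted p = 0.0107) were lower in all KO libraries.

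Relb, Nfkbiz and Bcl3 gave the least certain values in this comparison. Relb had 6.40, 6.33 and 6.33 in Cre-ERT2 WT and 6.29, 6.28 and 6.29 in Cre-ERT2 KO. Its difference of -0.07 ± 0.026 (adjusted p = 0.0416) did not overlap but was lost without any 1 of 7 libraries, ERT2 WT replicates 1 and 3, ERT2 KO replicate 2, Cre-ERT2 WT replicate 1 and the 3 of Cre-ERT2 KO (adjusted p between 0.0505 and 0.174). Nfkbiz was at -0.04 ± 0.023 (adjusted p = 0.190) and was called under both rescalings (-0.07 and -0.08). Bcl3 passed only without Cre-ERT2 KO replicate 3 (0.03, adjusted p = 0.0386).

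The make-up of subunit mRNA was computed as the share of each subunit in their summed unlogged values per kilobase of exon. In ERT2 WT Rela held 41.8% ± 0.55 (SD, n = 3), Nfkb1 24.1% ± 0.074, Rel 23.9% ± 0.43, Nfkb2 8.21% ± 0.24 and Relb 2.03% ± 0.027. Nfkb1 and Rel were thus close to each other in WT. In ERT2 KO Nfkb1 held 29.9% ± 0.49 and Rel 18.5% ± 0.26, and in Cre-ERT2 KO Nfkb1 held 31.8% ± 0.54 and Rel 16.8% ± 0.55. The share of Rel was higher in Cre-ERT2 WT (24.9% to 25.1%) than in ERT2 WT (23.4% to 24.2%), and lower in Cre-ERT2 KO (16.2% to 17.2%) than in ERT2 KO (18.2% to 18.7%). Differences between shares were not tested, and the change of Rel itself with β-catenin in WT had not passed (limma, adjusted p = 0.158). Shares depend on exon lengths merged over annotated isoforms, so comparisons between groups are firmer than those between subunits.

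**Figure D4:**
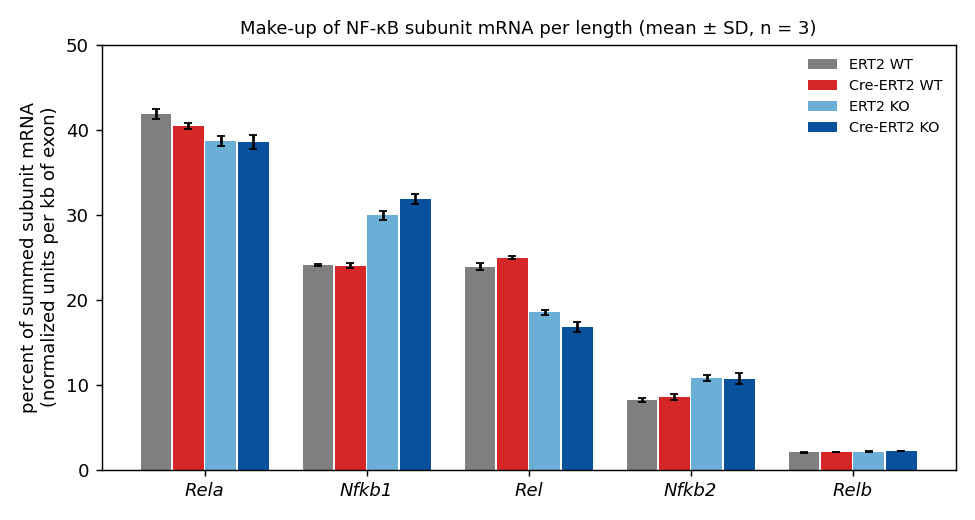
Share of each subunit (x axis) in the summed normalized units per kb of the 5 subunits (y axis, percent), as mean ± SD of 3 libraries in each of the 4 groups. Rel drops from 23.9% and 25.0% in the WT groups to 18.5% and 16.8% in the KO groups, whereas Nfkb1 goes from 24.1% and 24.0% to 29.9% and 31.8%.

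Genes whose pattern over the 12 libraries was most like that of the 2 most variable members were named by the root mean square difference of centred log2 values. For Tnfaip3 these were Tnfrsf19 (0.073), Plod2 (0.099) and 1110032F04Rik (0.12), against a spread of 0.42 of Tnfaip3 itself. Rel was followed most closely by Bcl7a (0.039), Sash3 (0.047) and Gpsm3 (0.051), against 0.30 of Rel itself.

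Upstream of the subunits, ligands and receptors of the pathway were examined as lists. Of 11 ligands 4 were in the table and of 20 receptors 11. With stabilized β-catenin in WT, 2 of 4 ligands were lower, against 5.95% of all genes (list median -0.07 against 2.2e-05 for all genes). Lta, which encodes lymphotoxin α, went from 8.28 ± 0.04 to 7.98 ± 0.04 (difference -0.30 ± 0.030, adjusted p = 3.92e-05) and Tnf from 6.43 ± 0.05 to 6.32 ± 0.05 (-0.11 ± 0.029, adjusted p = 0.0290). In the same comparison 1 receptor was higher and 1 lower (18.2% of the list, against 11.9% of all genes, median 0.0019). The BAFF receptor gene Tnfrsf13c fell, at -0.19 ± 0.031, and Tnfrsf13b, which encodes TACI, rose, at 0.10 ± 0.030.

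In KO, 1 of the 4 ligands was lower with stabilized β-catenin, Ltb, at -0.13 ± 0.024, against 5.33% of all genes called lower. The list median was -0.09, against -0.00041 for all genes. Of the receptors 2 were higher and 1 lower (27.3% of the list, against 12.6% of all genes, median -0.0025). Tnfrsf1b, a TNF receptor, had the largest difference, 0.32 ± 0.035. Between backgrounds, 10 of 11 receptors (90.9%, against 59.0% of all genes) were called in the ERT2 libraries, 7 higher in KO and 3 lower (median 0.12 against 0.0016 for all genes). Among the 7 were weak genes, Cd40 at 3.58 in ERT2 WT and 3.62 in ERT2 KO, and Tlr2 at 4.28 and 4.41. In the Cre-ERT2 libraries 8 (72.7%, against 58.9%) were called, 5 and 3 (median 0.08). Il1rap (0.89 ± 0.044 in ERT2) and Tlr4 (0.60 ± 0.039), which serve interleukin 1 and endotoxin, were higher in KO. Tnfrsf13c (-0.60 ± 0.031) and Tlr9 (-0.60 ± 0.028), the DNA sensor, were lower. All 4 ligands were called in both comparisons of KO with WT, against the same 59.0% and 58.9% of all genes, Ltb as higher and the other 3 as lower (medians -0.17 and -0.19), and Lta had the largest difference (-0.62 ± 0.030 in ERT2).

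Kinases, adaptors and ubiquitin ligases carry the signal to IκB, and 33 of 34 were in the table. With β-catenin 1 was called in WT (3.03% of the list, median 0.04) and 3 in KO (9.09%, median 0.014). Both shares lay below the 11.9% and 12.6% of all genes. Prkcb, a protein kinase C that acts downstream of the B cell receptor, was higher by 0.29 ± 0.031 in WT and 0.50 ± 0.031 in KO. In KO Tank was also higher (0.13 ± 0.035), and Traf3, an adaptor that restrains the noncanonical pathway, was lower (-0.21 ± 0.044). Against WT, KO had 5 higher and 11 lower in the ERT2 libraries (median -0.05) and 3 higher and 14 lower in the Cre-ERT2 libraries (median -0.07), which centring moved to 3 and 14 and to 2 and 18. These were 48.5% and 51.5% of the list, below the 59.0% and 58.9% of all genes. Malt1, a paracaspase of antigen receptor signaling, was higher in KO (0.59 ± 0.042 in ERT2), whereas Prkcb was lower (-0.64 ± 0.031 in ERT2). Fbxw11, one of the ligases that recognize both IκBα and β-catenin, was higher in Cre-ERT2 KO (0.15 ± 0.034).

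Other inhibitors and deubiquitinases numbered 18, of which 17 were in the table. None was called with β-catenin in WT by limma (median -0.0014, 0 of 17, with 2 at an unadjusted p under 0.05), against 11.9% of all genes. In KO 1 was higher and 1 lower (median -0.0011), Itch (0.10 ± 0.020) and N4bp1 (-0.08 ± 0.024). These were 11.8% of the list, near the 12.6% of all genes. Between KO and WT 12 were called in the ERT2 libraries, 5 higher and 7 lower (median -0.04), and 8 in the Cre-ERT2 libraries, 4 and 4 (median -0.04). These shares of 70.6% and 47.1% lay on either side of the 59.0% and 58.9% of all genes. Tnip1 and Tnip2, which encode ubiquitin-binding partners of the Tnfaip3 protein, moved in opposite directions (-0.20 ± 0.040 and 0.40 ± 0.027 in ERT2).

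Of 37 other genes commonly listed as NF-κB targets, 18 were in the table. With β-catenin 7 were called in WT, 5 higher and 2 lower, or 38.9% against 11.9% of all genes (median 0.0022). In KO 7 were called, 4 higher and 3 lower, or 38.9% against 12.6% of all genes (median 0.03). Cd69, an early activation antigen, rose most in WT, from 9.80 ± 0.06 to 10.40 ± 0.06 (0.60 ± 0.040, adjusted p = 8.73e-07), followed by Ccr7, a homing receptor, at 0.39 ± 0.037. In KO Irf4, a regulator of plasma cell differentiation, rose most (0.51 ± 0.027), then Cd69 (0.41 ± 0.040). Pim1 and Junb fell in both, at -0.20 and -0.11 in WT and at -0.30 and -0.18 in KO. Summed plasma cell markers, which include Irf4, lay at 6741 to 7048 in ERT2 WT and at 7715 to 8022 in Cre-ERT2 WT. Of the 5 in the table Irf4 (0.26) and Prdm1 (0.66) rose, Sdc1 fell (-0.17), and Xbp1 (-0.03) and Jchain (-0.02) did not pass. Their part was not tested.

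Between KO and WT, 14 target genes were called in the ERT2 libraries, 8 higher and 6 lower (median 0.04), and 13 in the Cre-ERT2 libraries, 7 and 6 (median 0.02). These were 77.8% and 72.2% of the list, against 59.0% and 58.9% of all genes. In both comparisons the higher genes included Nos2 (group means 2.78 to 2.84) and Plau (3.58 to 3.67), which lay near the floor. Ier3, an early response gene, and Cd44, an adhesion receptor, were the most raised in KO (0.91 ± 0.048 and 0.47 ± 0.032 in ERT2). Ccr7 was the most lowered in both, at -1.24 ± 0.037 and -1.43 ± 0.037. Irf4 (-0.77 ± 0.027 in ERT2) and Icam1, another adhesion gene (-0.64 ± 0.027 in Cre-ERT2), were lower too. The called targets thus moved in both directions in each of these comparisons.

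**Figure D5:**
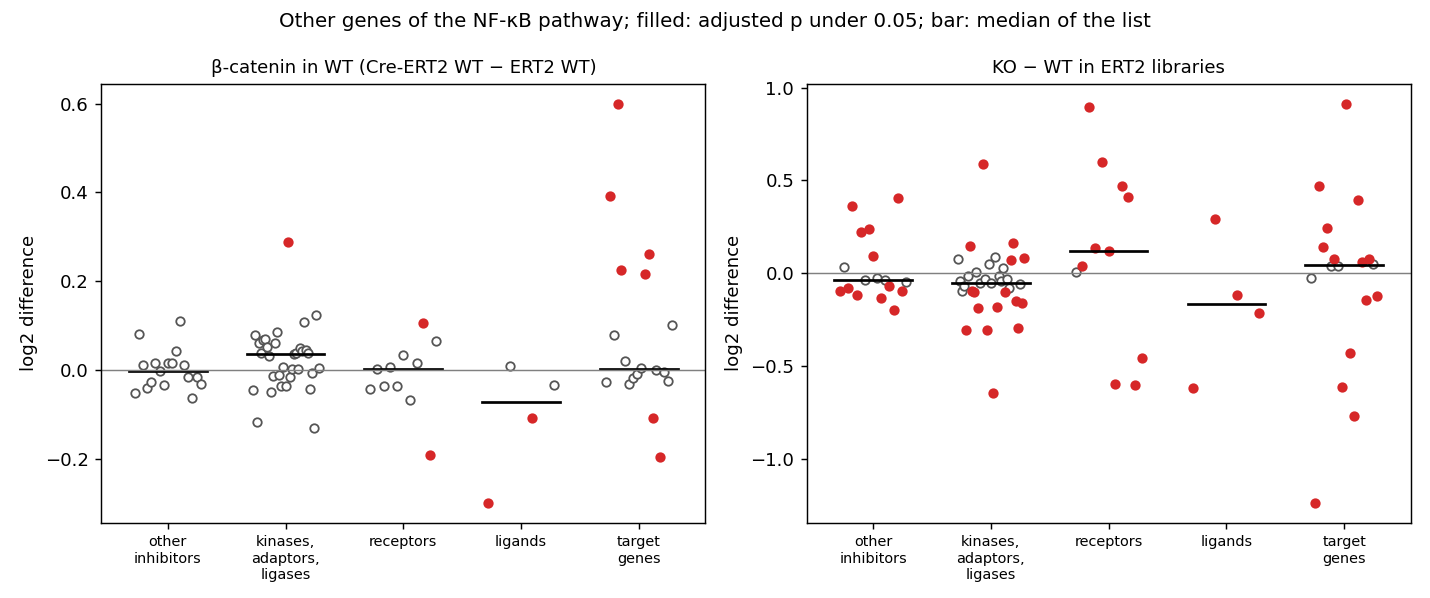
Log2 differences (y axis) of the genes in 5 lists of the NF-κB pathway (x axis), with β-catenin in WT on the left and KO against WT in the ERT2 libraries on the right; each point is 1 gene, filled where adjusted p was under 0.05, and bars are list medians. On the left most points lie within the unfilled band around 0 and Cd69 is highest at 0.60, while on the right filled points lie on both sides of 0, down to -1.24 for Ccr7.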

How the data were processed

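RNA was measured in 12 libraries, grouped by their titles. According to the study's methods and the submitters' processing notes, the authors quantified reads with Salmon 1.4.0, aligned them with STAR 2.7.6 to mm10 and used DESeq2 1.30.1. The deposited table holds normalized log2 values per gene, without counts, so depth is unknown and counting intervals cannot be computed. The transformation is not stated. It may compress differences of weak genes and the spread between replicates.

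The log2 values were used as deposited, without pseudocount or filter. With limma 3.58.1 (R 4.3.3), 4 group means were estimated from the 12 libraries together (eBayes with trend, 8 residual degrees of freedom), with 5 contrasts. P values were adjusted over 12151 genes by the Benjamini-Hochberg method, and a gene was called at adjusted p under 0.05. Fitted log2 differences carry their SE and group means their SD. The script was tested on simulated data. Single genes were also compared by exact 2-sided permutation. Exon lengths came from GENCODE M21 (GRCm38) for 12111 genes and promoters from RefSeq (GRCm38.p6). A planned search of the inhibitor proteins for their degradation motif was not run, because no protein table was used here. From each pathway list the text draws on the 2 called genes with the largest rise and the 2 with the largest fall in each comparison, except for an item that is not reported here. The 10 genes, the lists and the tests were chosen with earlier results of these data known.

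Whether equal replicate numbers pair libraries is not stated in the labels, and the main fit treated all libraries as unpaired. Deviations of same-numbered libraries from their group means correlated between -0.07 and 0.31 over 7729 genes. Alternatives were centring on the median, quantile normalization, a low-value filter, a pseudocount of 1, a constant prior, fits of single contrasts, a stricter threshold, a replicate block and leaving out each library.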

Additional observations from a re-analysis of the deposited data

Results flagged for a closer look

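The effect of stabilized β-catenin differed between the backgrounds, by the test of the difference itself (limma, adjusted over all genes), for 1 of the 10 genes and 5 other genes of the pathway, against 4.53% of all genes. The other genes were 2 of 4 ligands (50.0%) and 1 of 11 receptors (9.09%). They also held 1 of 33 kinases and adaptors (3.03%) and 1 of 18 target genes (5.56%). Of 17 other inhibitors 0 passed (limma, with 3 at an unadjusted p under 0.05). Outside the 4 ligands no list had more than 1 such gene, so these counts do not set the pathway apart from all genes. Rel had a difference, KO minus WT, of -0.26. Of the ligands, Lta had 0.22, with effects of -0.30 in WT and -0.08 in KO, where it did not pass, and Ltb -0.14. Prkcb, among the kinases, had 0.21, and both of its effects were positive. The target gene Irf4 had 0.25, and it rose in both backgrounds. The receptor gene Tnfrsf1b had 0.25, with a called rise in KO (0.32) and a value of 0.06 in WT that did not pass. Groups of 3 libraries are too small for the test of single outlying libraries, so none was made.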

How the results depend on the processing

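Over the 10 genes and 5 comparisons, 975 values were recomputed under the alternatives. Of these, 938 stayed on the same side of the threshold, 30 lost a call, 7 gained one, and no called value changed its sign, while 23 values called in neither fit did. Leaving out single libraries gave between 2 and 5 called genes for β-catenin in KO, against 3, with 5 only without ERT2 KO replicate 3. It gave 2 for β-catenin in WT and 1 for the difference of both effects throughout, 6 to 8 for KO against WT in ERT2 and 7 to 8 in Cre-ERT2. At adjusted p under 0.01 the calls lost were Nfkbia for β-catenin in KO, Nfkbia and Nfkbiz for KO against WT in ERT2, and Relb and Nfkbie for KO against WT in Cre-ERT2. Libraries share only a replicate number. In 13 of 24 comparisons a library correlated best with its own number, out of the 3 in the other group. Pairing is thus not settled. With a replicate block, calls over all genes were 1361, 1374, 7089, 7108 and 424, against 1443, 1531, 7175, 7161 and 550. Of the 10 genes only Nfkbiz lost its call under the block (adjusted p = 0.0572). Quantile normalization added Nfkbiz in KO with β-catenin (-0.09) and Relb in ERT2 (-0.08).

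Counts in the lists rested on few genes. Without 1 library the 2 receptors called with β-catenin in WT became 1 (ERT2 WT replicates 1 and 2, Cre-ERT2 WT 1 and 3, ERT2 KO 3), as did the 2 ligands (ERT2 WT 1, Cre-ERT2 WT 2 and 3). The 2 inhibitors in KO became 1 without ERT2 WT 1, Cre-ERT2 WT 3, any ERT2 KO library or Cre-ERT2 KO 2 or 3. Without Cre-ERT2 WT replicate 2, 11 in place of 17 kinases and adaptors were called in Cre-ERT2 KO against WT. The call of Prkcb for the difference was lost without ERT2 WT replicate 1. Restriction to genes with a mean above 8 left 3 called receptors in each KO comparison, because the other called receptors had lower means and were not tested. Depth is unknown, so what it limits cannot be given, and the causes of the other changes were not tested.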
